A study of Mus musculus with 43 samples.

Results

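Interferon-stimulated genes are the genes that cells switch on when an interferon binds its receptor. The set described here holds 38 of the 56941 gene identifiers in the tables, taken by gene symbol and each matched to 1 identifier. The members were chosen with earlier results of these data known. It was divided into 28 type I members, which respond chiefly to interferon alpha and beta (Isg15, Rsad2, Cmpk2, the Ifit, Oas and Mx genes, the sensors and others), and 10 gamma-type members, which respond strongly to interferon gamma (5 guanylate-binding proteins, Irgm1, Igtp, Cxcl9, Cxcl10 and Irf1). The split is a convention, since many members answer to both kinds of interferon.

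The RNA-seq libraries came from mouse bone marrow sorts. Wild-type CD45.1+ mice that had received no conditioning were given 5000000 whole marrow cells carrying JAK2V617F, the mutation of the kinase JAK2 found in myeloproliferative neoplasms, from CD45.2+ donors, and were matched to them by age and sex. After about 7 months, 3 sorts were made from 7 such mice and 8 untransplanted CD45.1+ mice: CD45.1+ cells of the recipients ("host", 7 libraries), CD45.2+ mutant cells from the same recipients ("donor", 7), CD45.1+ cells of the controls (8), and CD45-negative, lineage-negative cells enriched for stroma (7 from transplanted and 8 from control mice). A further 6 male mice gave CD45.1+ CD11b+ myeloid cells at 52 weeks, 3 per group. Every comparison with controls therefore sets mice carrying mutant donor cells against mice that received no cells. In these, mutation and transplantation cannot be told apart. Donor cells also differ from control and host cells in the CD45 allele. Where donor and host cells of the same recipients are compared, mutation, CD45 allele and origin from the graft cannot be told apart. The title of 1 library (mouse N204, donor) calls it donor and another label calls it recipient-derived; the title was followed. Total counts per library were 15713119 to 19683698 in the CD45 sorts, 41210646 to 143228988 in stroma and 32478800 to 44853593 in CD11b cells. Ptprc, which encodes CD45, ran at 738 to 1321 counts per 1000000 (CPM) in the host, donor and control libraries, against 44.8 to 325 in stroma, and 6 stroma markers summed to 1859 to 13570 CPM in stroma against 2.60 to 9.35 in the CD45 sorts. Stroma libraries thus held some CD45 transcript, and they held other blood-cell RNA. In them 8 neutrophil markers had a median sum of 13280 CPM in control and 15450 CPM in transplanted mice. The 6 stroma markers had medians of 6065 and 7007 CPM there. In bulk libraries such as these, fewer cells of a type and less RNA per cell cannot be told apart.

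Type I interferons bind IFNAR1 and IFNAR2, whose kinases JAK1 and TYK2 phosphorylate transcription factors of the STAT family. With IRF9 these form the complex ISGF3, which binds the interferon-stimulated response element, a run of GAAA repeats. Interferon gamma acts through JAK1 and JAK2 and a STAT dimer that binds the gamma-activated site, TTCNNNGAA. In marrow, interferons are known to act on blood stem cells and their niche, and interferon alpha is used to treat JAK2-mutant neoplasms.

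Several members that passed in at least 1 comparison below hold the response element core, among them Ifit3, Ddx58, Ifitm3 and Gbp5. The promoters of 6 others that do so are shown as examples. They are the 250 bases before the transcription start in RefSeq (build GRCm38.p6, whereas the counts were made on GRCm39), 5′ to 3′ on the gene's strand, with bases matching 2 GAAA repeats 2 bases apart, on either strand, in capitals. Their identifiers in the tables are ENSMUSG00000035692 (Isg15), ENSMUSG00000020641 (Rsad2), ENSMUSG00000066861 (Oas1g), ENSMUSG00000052776 (Oas1a), ENSMUSG00000046718 (Bst2) and ENSMUSG00000028268 (Gbp3).
Isg15, chr4:156200819-156201068, minus strand: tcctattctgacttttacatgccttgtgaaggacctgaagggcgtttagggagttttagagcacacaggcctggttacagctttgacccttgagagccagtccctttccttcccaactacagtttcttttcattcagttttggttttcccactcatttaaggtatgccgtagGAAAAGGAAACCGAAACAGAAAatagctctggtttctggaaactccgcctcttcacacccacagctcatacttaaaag
Rsad2, chr12:26456453-26456702, minus strand: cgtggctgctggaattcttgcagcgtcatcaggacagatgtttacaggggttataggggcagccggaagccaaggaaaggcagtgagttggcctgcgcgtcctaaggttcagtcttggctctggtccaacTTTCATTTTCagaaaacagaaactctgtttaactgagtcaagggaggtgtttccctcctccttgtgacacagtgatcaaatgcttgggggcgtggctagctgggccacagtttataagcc
Oas1g, chr5:120887614-120887863, minus strand: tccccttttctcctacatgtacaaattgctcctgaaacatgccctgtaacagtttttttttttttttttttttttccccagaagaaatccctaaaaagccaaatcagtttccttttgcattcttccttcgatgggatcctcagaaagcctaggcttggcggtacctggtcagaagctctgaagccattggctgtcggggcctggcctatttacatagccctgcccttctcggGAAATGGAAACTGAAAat
Oas1a, chr5:120907526-120907775, minus strand: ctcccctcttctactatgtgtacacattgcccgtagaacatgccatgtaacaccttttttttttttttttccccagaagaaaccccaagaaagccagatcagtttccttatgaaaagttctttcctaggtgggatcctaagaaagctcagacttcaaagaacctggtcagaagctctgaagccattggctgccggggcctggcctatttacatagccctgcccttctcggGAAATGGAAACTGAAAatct
Bst2, chr8:71537473-71537722, minus strand: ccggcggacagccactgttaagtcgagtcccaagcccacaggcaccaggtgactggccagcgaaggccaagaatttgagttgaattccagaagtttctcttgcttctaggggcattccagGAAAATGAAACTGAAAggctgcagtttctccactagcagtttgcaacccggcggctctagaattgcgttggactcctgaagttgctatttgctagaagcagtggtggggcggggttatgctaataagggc
Gbp3, chr3:142559794-142560043, plus strand: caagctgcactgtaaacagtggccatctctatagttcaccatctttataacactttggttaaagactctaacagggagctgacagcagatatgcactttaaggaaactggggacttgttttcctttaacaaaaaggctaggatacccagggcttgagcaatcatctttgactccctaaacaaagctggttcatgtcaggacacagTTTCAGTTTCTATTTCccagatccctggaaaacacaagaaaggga

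Isg15 had 3 overlapping matches, from base -78 to base -57 counted from the start. Rsad2 had 1, on the other strand, from -120 to -111. Oas1g and Oas1a had the same 16-base run with 2 matches, ending 3 and 5 bases before the start. Of the 30 members whose promoter was in the table, 20 (66.7%) held the 2-repeat core within 250 bases before and 50 after the start, against 3.44% of 32851 promoters. The core was in 13 of 21 type I and 7 of 9 gamma-type promoters, and TTCNNNGAA in 9 of 30 (30%), against 8.30% of all promoters. For both motifs the members were counted by gene, with a match in any of a gene's promoters. The background was counted by promoter, with 32851 promoters for 27025 gene symbols, so the units differ. These are matches of letters, not measured binding, and the 2 motifs can overlap, as in Bst2.

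Single libraries stood apart on these genes, and their place is given before the group comparisons. Relative to the mean of its control group, the control mouse N288 was at a median of 0.72 on the log2 scale over the type I members, and its CD45.1 library was the highest of 8 in 27 of 28. Its stroma library was the highest of 8 controls in 12 of 28, at a median of 0.39. Among transplanted mice, N032 was the highest of 7 in 9 of 10 gamma-type members in both its host (median 0.83) and its donor library (median 1.01), and in 7 of 10 in stroma (0.46), where it was the lowest in 15 of 28 type I members. That stroma library also had the lowest stroma marker sum, 1859 CPM. In CD11b cells, N129 was the lowest of 3 transplanted mice in 26 of 28 type I members (median -0.77) and the highest in 9 of 10 gamma-type members (0.98). Results that rest on these libraries are given with and without them.

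**Figure D1:**
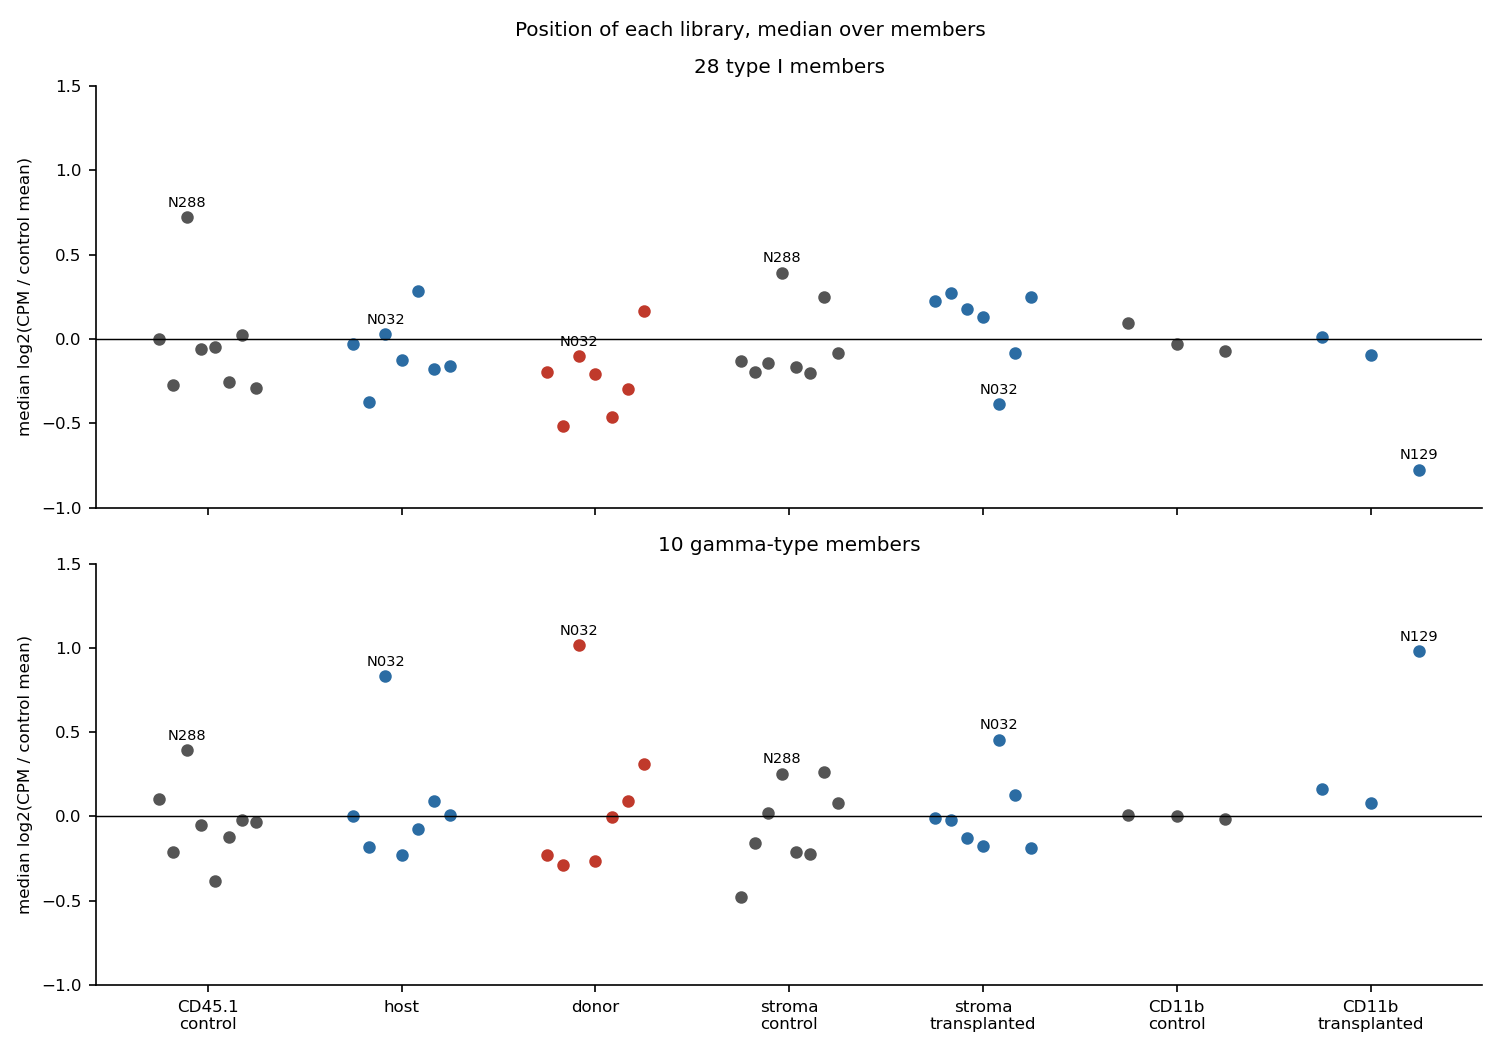
Median log2 ratio of each library's CPM to its control group's mean over the 28 type I members (upper panel) and the 10 gamma-type members (lower panel), 1 point per library in 7 groups. N288 sits at 0.72 among CD45.1 controls for type I, and N032 at 0.83 (host) and 1.01 (donor) for gamma-type members, while most other libraries lie nearer to 0.

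Per transcript length, the members spanned a wide range in every sort. Ifitm3, a membrane protein that blocks virus entry, was the highest in each of the 7 groups, from 733 transcripts per 1000000 (TPM) in CD11b controls to 919 in donor cells. Irf1 (a transcription factor) and Bst2 (tetherin, which holds budding virions at the cell surface) followed in the host, donor, control and stroma groups, at 77.4 to 107 TPM for each group mean. Ifi44, Cxcl9 and Gbp4 were among the lowest in CD45.1 or CD11b groups, and Mx1 and Oas1g in stroma. Sort and library kit go together, so levels in different sorts are set side by side without a test.

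The first comparison asks whether wild-type blood cells living beside mutant cells changed their interferon-stimulated genes. In host cells 3 members rose (Oas1a, Oas1g and Gbp3) and 1 fell (Mx2), out of 38 tested. A gene passed when its adjusted p in edgeR's quasi-likelihood test, with Benjamini-Hochberg adjustment over all genes tested, was below 0.05. Over all genes, 8.61% rose and 7.82% fell, so the members' shares (7.89% and 2.63%) did not exceed the background. The median log2 fold change was -0.04 over type I members (0.05 without N288) and 0.23 over gamma-type members, beside 0.01 over all genes. No member's host libraries lay wholly outside the control range, against 2.44% of genes with groups that did not overlap.

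The Oas genes encode oligoadenylate synthetases, which make the second messenger that activates RNase L. Oas1a ran at 9.58 to 34.5 CPM in controls (median 14.1) and 17.8 to 35.0 in host cells (median 20.6). The control at 34.5 was N288. Of the other 7 controls, 6 lay below every host library, and N277, at 20.8, lay above 4 of the 7. The log2 fold change was 0.55 ± 0.16 (SE, adjusted p = 0.0275, edgeR). Oas1g ran at 0.705 to 5.86 CPM in controls (median 1.13) and 1.22 to 6.53 in host cells (median 2.21), a log2 fold change of 1.00 ± 0.31 (adjusted p = 0.035, edgeR). Again the highest control was N288. The pair are near-identical neighbours, so reads may be divided between them and their separate values are uncertain. Without N288, the log2 fold changes were 0.70 for Oas1a (adjusted p = 0.00151) and 1.36 for Oas1g (adjusted p = 0.00321, edgeR). The other 4 genes of the family, Oas2, Oas3, Oasl1 and Oasl2, had values between -0.09 and 0.07 and did not pass.

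Guanylate-binding proteins are large GTPases that attack the vacuoles of intracellular pathogens. Gbp3 ran at 15.6 to 26.6 CPM in controls (median 21.8) and 21.7 to 34.5 in host cells (median 28.1), with overlap. Its log2 fold change was 0.37 ± 0.11 (adjusted p = 0.0287, edgeR). It lost the call without the host library N032 and in the fit with the day of death as a replicate block (0.20, adjusted p = 0.105), which uses the 5 pairs of mice killed on the same day and drops N032, N005, N288, N051 and N093. Gbp5 missed the threshold at 0.50 (adjusted p = 0.0502), and Gbp2, Gbp4 and Gbp7 had values of 0.54, -0.40 and 0.29 and did not pass. Without N032, no gamma-type member passed and their median was 0.07.

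Mx1 and Mx2 are dynamin-like GTPases that trap viral nucleocapsids. Mx2 ran at 1.74 to 3.06 CPM in controls (median 2.27) and 1.11 to 2.51 in host cells (median 1.47), with the host library N005 at the top. It fell by 0.60 ± 0.19 on the log2 scale (adjusted p = 0.035, edgeR). The call was lost with the same day block (-0.62, adjusted p = 0.0665) and without N288. Mx1 had a value of -0.30 (adjusted p = 0.076). Of the remaining type I members, the nucleic-acid sensors Zbp1 (0.44, adjusted p = 0.0917) and Ifih1 (0.30, adjusted p = 0.0784) came nearest to the threshold. Both passed without N288, at 0.57 and 0.38. Isg15, a ubiquitin-like protein joined to other proteins, stood at 9.93 ± 3.59 CPM in controls (SD, n = 8) and 10.1 ± 1.90 in host cells (SD, n = 7), a value of 0.06 ± 0.19 (SE). Rsad2, which encodes the antiviral enzyme viperin, had -0.29 ± 0.21.

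The count of 4 rested on few libraries. It was 0 without the host library N014, 2 without N279, N032 or N005, and 6 (all higher) without N288. Among the controls it was 1 without N208 or N280 and 2 without N093. In the same comparison 6 of 7 macrophage markers rose with a median log2 fold change of 3.68, 4 of 5 monocyte markers rose, and 7 of 7 B-lineage markers fell with a median of -1.39. Their part in the members' values was not tested.

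**Figure D2:**
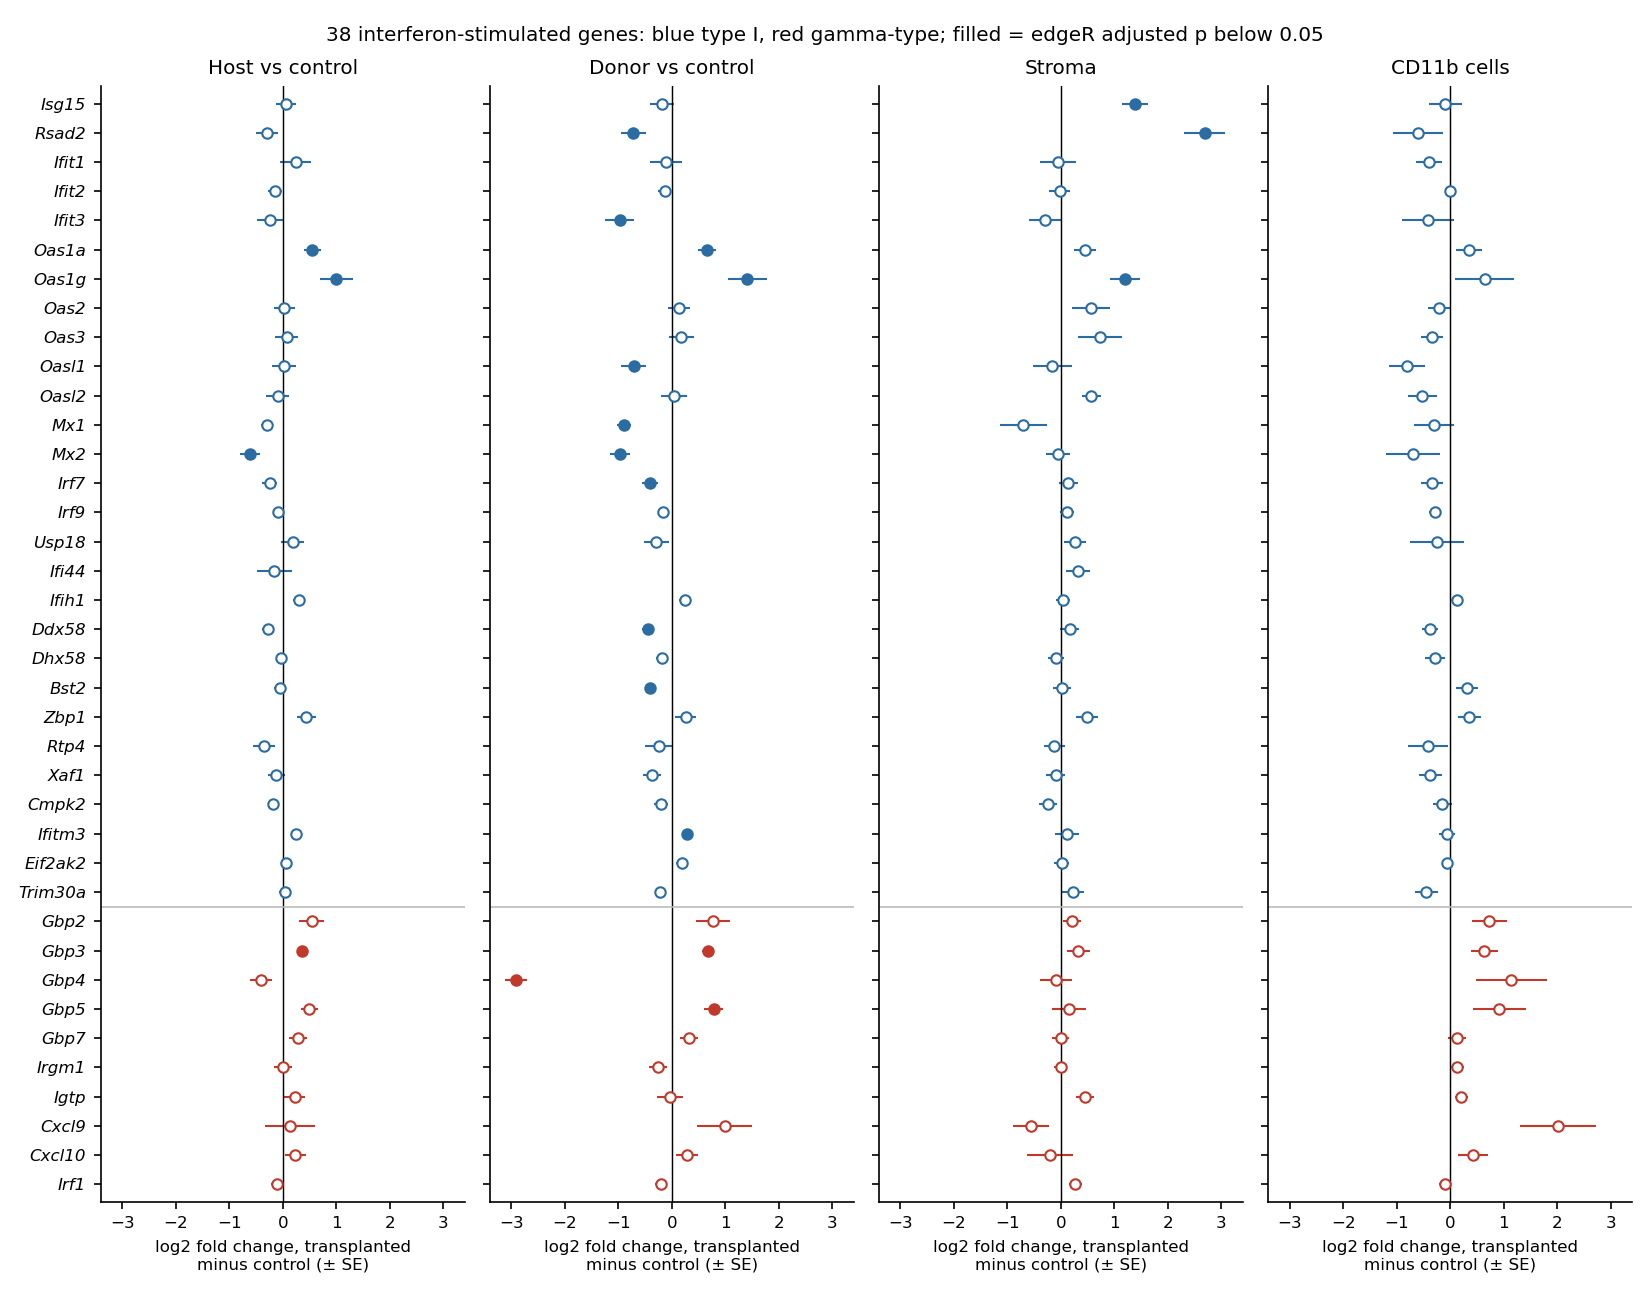
Log2 fold change ± SE of each member (rows; blue type I, red gamma-type) in 4 comparisons with untransplanted mice; filled points passed the edgeR threshold. Filled points number 4 in host, 14 in donor, 3 in stroma and 0 in CD11b cells, and the stroma points of Isg15 (1.39) and Rsad2 (2.68) lie far from 0.

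Donor cells were compared with the same 8 control libraries, so the host and donor comparisons share controls and are given side by side, with no overlap between them counted as a result. In donor cells 5 of 37 members tested rose (Oas1a, Oas1g, Ifitm3, Gbp3 and Gbp5) and 9 fell (Rsad2, Ifit3, Oasl1, Mx1, Mx2, Irf7, Ddx58, Bst2 and Gbp4). Ifi44 was too low to be tested. Over all genes 22.7% rose and 23% fell, beside 13.5% and 24.3% of the members. The type I median was -0.19, with 18 of 27 below 0, and the gamma-type median was 0.30, beside -0.001 over all genes. Donor and control libraries did not overlap in 4 members (Mx1, Mx2, Gbp3 and Gbp4), against 16.8% of all genes.

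Gbp4 differed most. It ran at 5.64 to 13.4 CPM in controls (median 9.04), 3.60 to 10.5 in host cells (median 6.93) and 0.826 to 1.78 in donor cells (median 1.17). Every donor library lay below every host and control library. It fell by 2.92 ± 0.20 on the log2 scale against controls (adjusted p = 5.53e-09, edgeR), and its host value was -0.40 ± 0.20 (adjusted p = 0.191). Its family did not move as one. Gbp8 and Gbp9, which are not among the 38, fell as well (-2.88 and -2.28), while Gbp3 and Gbp5 rose. Gbp3 ran at 27.3 to 45.0 CPM in donor cells (median 33.9), above every control, and rose by 0.68 (adjusted p = 1.18e-04, edgeR). Gbp5 rose by 0.78 (adjusted p = 0.00146), from 7.99 to 13.97 CPM in controls (median 9.71) to 10.6 to 27.6 (median 17.0). The guanylate-binding protein genes are close copies of each other, so reads may be shared among them.

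Both Mx genes were lower in donor cells. Mx1 ran at 8.85 to 15.3 CPM in controls (median 11.9) and 4.92 to 8.57 in donor cells (median 5.78), and fell by 0.89 ± 0.13 on the log2 scale (adjusted p = 2.3e-05, edgeR). Mx2 ran at 0.704 to 1.68 CPM in donor cells (median 1.3) and fell by 0.97 ± 0.19 (adjusted p = 4.87e-04). Neither gene's donor libraries overlapped the controls. Ifit3, whose protein supports IFIT1 in binding foreign RNA, ran at 2.43 to 9.35 CPM in controls (median 3.77) and 1.24 to 3.14 in donor cells (median 1.89), and fell by 0.97 ± 0.27 (adjusted p = 0.00695). Ifit1 and Ifit2 had values of -0.11 and -0.14 and did not pass.

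Bst2 ran at 37.97 to 60.8 CPM in controls (median 45.6) and 30.1 to 42.6 in donor cells (median 35.8), overlapping, and fell by 0.42 (adjusted p = 0.00131, edgeR). Bst2 is also a marker of plasmacytoid dendritic cells, a main source of type I interferon. All 7 markers of that cell type, Bst2 included, fell in donor cells, with a median of -1.92. Their summed level was 165 to 233 CPM in donor, 207.9 to 337.5 in host and 291 to 432 in control libraries. Irf7, the transcription factor that drives interferon alpha genes, fell by 0.40 (adjusted p = 0.0366), from a median of 71.1 CPM to 52.6. The RNA sensor gene Ddx58 (RIG-I) fell by 0.44 (adjusted p = 0.00395). All 7 B-lineage markers (median -5.11) and 6 of 7 T and NK markers (median -2.91) fell too. The other T and NK marker, Nkg7, rose by 0.52 (adjusted p = 1.95e-04, edgeR). The summed T and NK level had medians of 142.7 CPM in donor and 146.8 CPM in control libraries. The part of all these cell types in the members' values was not tested.

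Rsad2 fell by 0.72 (adjusted p = 0.0169) and the synthetase-like gene Oasl1 by 0.71 (adjusted p = 0.0193, edgeR). With the day block, which here too drops 5 mice, Rsad2 (-0.37, adjusted p = 0.105), Oasl1 (-0.24, adjusted p = 0.204) and Irf7 (-0.23, adjusted p = 0.0503) lost their calls. The synthetases at the Oas1 locus rose. Oas1a ran at 17.8 to 35.5 CPM in donor cells (median 25.8; log2 fold change 0.65, adjusted p = 0.00375). Oas1g ran at 0.9992 to 6.84 (median 4.46; 1.41, adjusted p = 0.00419). Ifitm3 rose by 0.28 (adjusted p = 0.0258). Without N288 the counts were 7 higher and 8 lower. Without N032 they were 5 and 13, with Irf1, Irgm1, Igtp, Irf9 and Trim30a joining the lower genes and Irf7 leaving them (-0.41, adjusted p = 0.0527). Without the library whose labels conflict (N204) they were 9 and 7. Of the gamma-type members 5 were then higher and 1 lower, against 2 and 1 with it, and their median was 0.40. Of the type I members 4 were higher and 6 lower, against 3 and 8, and their median was -0.16.

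Host and donor cells of one mouse are exposed to one marrow, and they were also compared directly. A first fit did not pair the libraries by mouse, and the paired fit, with 2 members higher and 13 lower, is given below. In the first fit no member was higher in donor cells than in host cells, beside 4.17% of all genes. In that fit 5 were lower (Ifit3, Oasl1, Mx1, Bst2 and Gbp4), beside 9.94% of all genes. The 5 amount to 13.5% of the 37 members tested. One member, Gbp4, had groups that did not overlap, against 5.04% of genes. Gbp4 was lower by 2.53 ± 0.24 on the log2 scale (adjusted p = 1.28e-06, edgeR), and within single mice the log2 ratio of donor to host was -3.19 to -1.27. Oasl1 ran at 7.04 to 10.1 CPM in host cells (median 8.39) and 3.73 to 7.54 in donor cells (median 4.56), with a log2 fold change of -0.74 ± 0.14 (adjusted p = 0.00127). Mx1 (-0.58, adjusted p = 0.00313), Bst2 (-0.37, adjusted p = 0.027) and Ifit3 (-0.74, adjusted p = 0.0352) followed.

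With the mouse as a replicate block, 15 members passed in this comparison, 2 higher (Gbp3 and Gbp5) and 13 lower, beside 15.2% of all genes higher and 18.5% lower (4605 genes, against 1928 without the block). The 8 genes added on the lower side were Isg15 (-0.28, adjusted p = 0.0395), its deconjugating protease Usp18 (-0.50, adjusted p = 0.0424), Rsad2 (-0.45, adjusted p = 6.74e-04) and Trim30a (-0.25, adjusted p = 6.36e-04, edgeR), and Irf7 (-0.17), Ddx58 (-0.16), Irgm1 (-0.28) and Igtp (-0.33). Of the 38 members, 9 (Rsad2, Ifit3, Oasl1, Mx1, Ifi44, Dhx58, Bst2, Trim30a and Gbp4) were lower in donor than in host cells in 7 of 7 mice, beside 13.6% of all genes tested. Gbp3 was higher in 7 of 7, with log2 ratios of 0.17 to 0.53, as were 12.1% of all genes. In the fit without the block, 6 of 6 plasmacytoid dendritic markers tested, Bst2 included, were lower in donor than in host cells (median -1.04). So were 7 of 7 B-lineage markers (median -3.94).

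**Figure D3:**
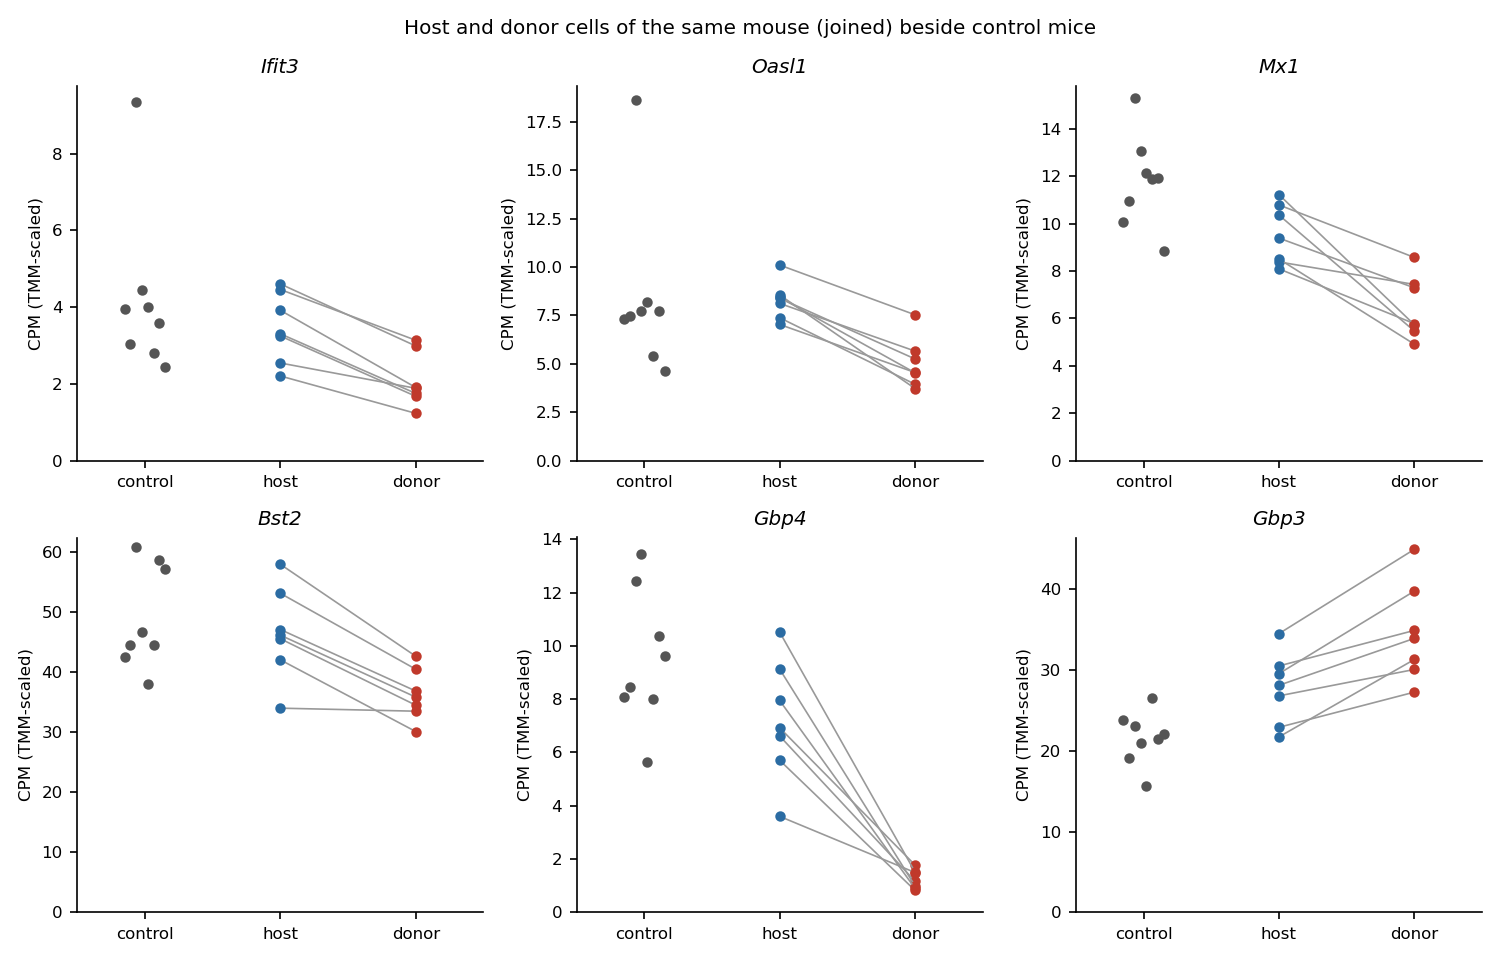
CPM of 6 members in control, host and donor libraries, with host and donor points of the same mouse joined. Lines for Ifit3, Oasl1, Mx1, Bst2 and Gbp4 run downward in 7 of 7 mice, to 0.826 to 1.78 CPM for Gbp4, and lines for Gbp3 run upward in 7 of 7.

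The stroma comparison asks the same question of marrow cells sorted by the absence of CD45 and lineage markers. These libraries also held blood-cell RNA, as given above. Isg15, Rsad2 and Oas1g rose in stroma of transplanted mice and no member fell, among 38 tested. Over all genes 0.466% rose and 1.03% fell (0.592% and 0.714% with upper-quartile scaling). The share of members that rose, 7.89%, stood above that background. Since the members were chosen with earlier results of these data known, this share is a description and not an independent test. Type I members had a median of 0.11 (-0.02 in males alone) and gamma-type members of 0.08 (-0.02 without N032), beside 0.04 over all genes, and 35 of 38 did not pass. One member, Rsad2, had groups that did not overlap, against 0.779% of genes.

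Rsad2 ran at 6.04 to 16.7 CPM in 8 control stroma libraries (median 12.5) and 16.8 to 161 in 7 transplanted ones (median 70.2). The lowest transplanted library, N032, was level with the highest control, and the other 6 were at 29.8 CPM or more. The group means were 12.1 ± 3.42 and 80.2 ± 52.4 (SD), a log2 fold change of 2.68 ± 0.39 (SE) or 6.43-fold (adjusted p = 0.00166, edgeR). Its neighbour Cmpk2, a nucleotide kinase gene that lies beside Rsad2 and is commonly induced with it, had 29.2 ± 7.99 CPM in controls and 24.7 ± 3.78 in transplanted mice, a value of -0.25 (adjusted p = 0.872).

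Isg15 ran at 11.5 to 21.5 CPM in controls (median 12.4) and 15.8 to 62.1 in transplanted mice (median 35.0), with N204 lowest and N203 highest. All but N204 lay above every control. The means were 14.4 ± 4.08 and 38.8 ± 15.5, a log2 fold change of 1.39 ± 0.25 or 2.62-fold (adjusted p = 0.00541, edgeR). Per length this was 28.3 ± 7.45 TPM in controls and 71.8 ± 27.2 in transplanted mice. Both genes passed without N203, at 1.27 and 2.48, and without N032, at 1.39 and 2.82. Within 1 sex neither passed: in males Isg15 was at 1.59 (adjusted p = 0.0617) and Rsad2 at 2.81 (adjusted p = 0.0703), in females at 1.08 (0.711) and 2.49 (0.223).

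Oas1g ran at 0.238 to 0.770 CPM in control stroma and 0.741 to 1.87 in transplanted stroma, and rose by 1.20 ± 0.27 (adjusted p = 0.0336, edgeR). This call was lost in 16 of 27 alternatives, among them the day block (1.20, adjusted p = 0.0865). Its locus partner Oas1a had 0.45 and did not pass. The other type I members stayed nearer to 0. Ifit1, Ifit2 and Ifit3 had values of -0.05, -0.02 and -0.30, Usp18 had 0.26, Irf7 had 0.13 and Mx1 had -0.70, and none passed. Oasl2 was at 0.57 (adjusted p = 0.221) and passed without N032, at 0.65. Among gamma-type members the highest value was 0.45 for Igtp (adjusted p = 0.35), which takes part in clearing vacuoles, and Cxcl9, a chemokine that draws T cells, had -0.56.

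**Figure D4:**
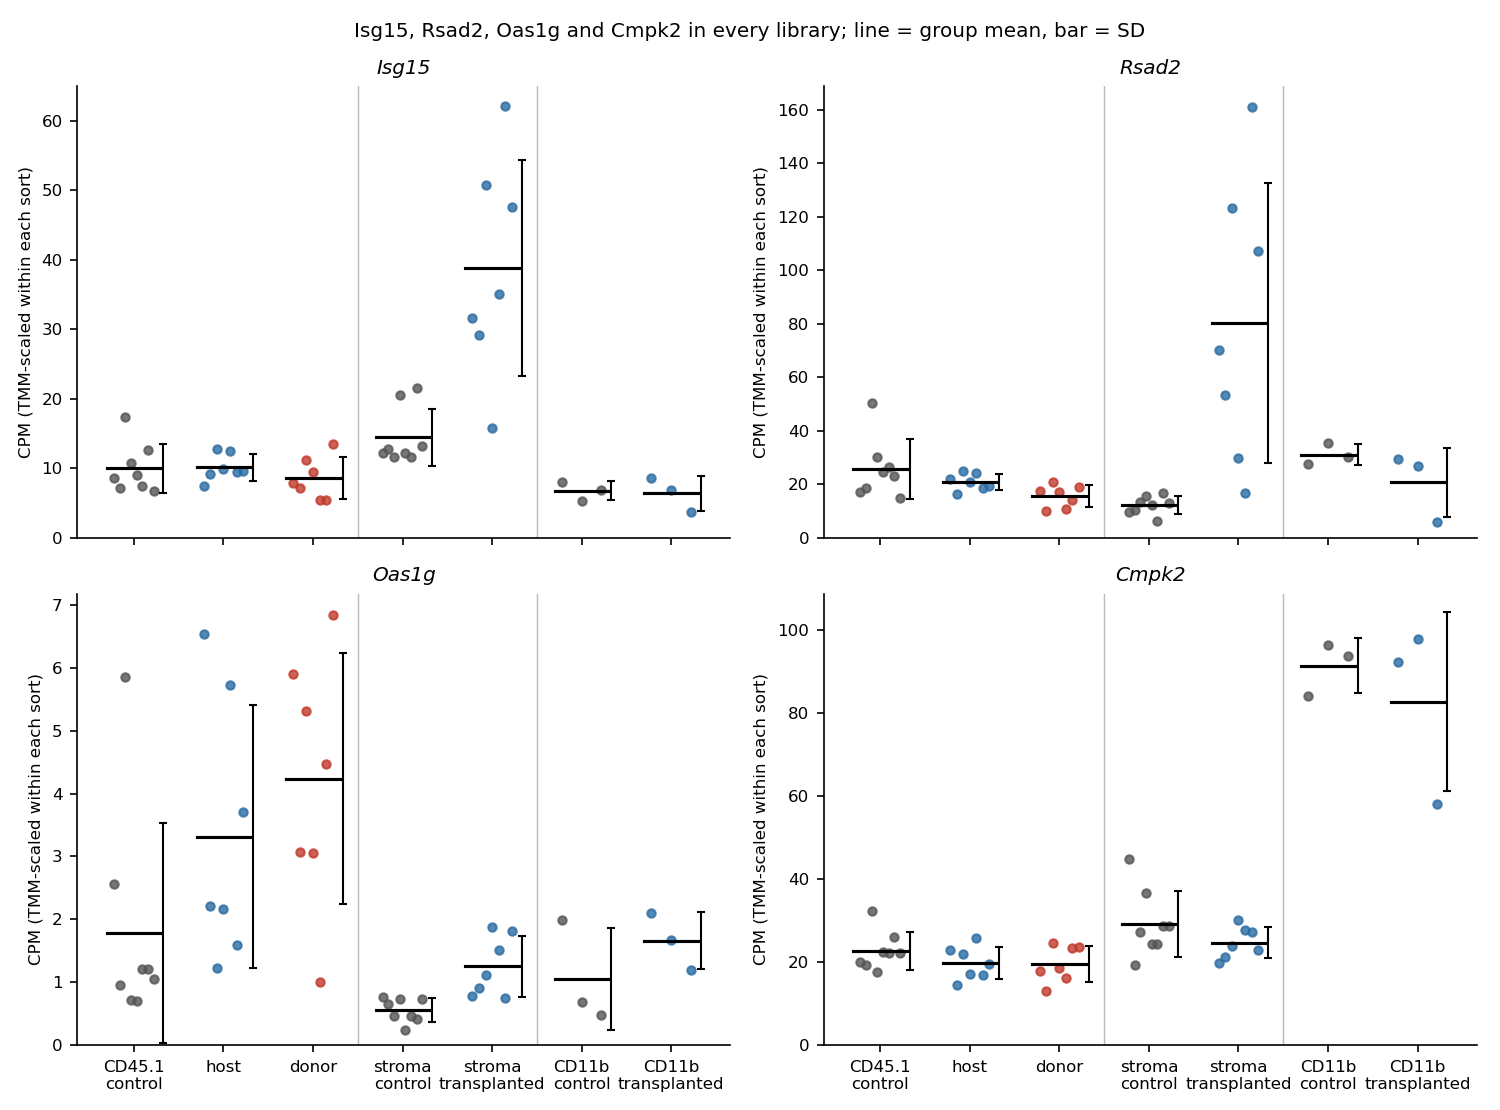
CPM of Isg15, Rsad2, Oas1g and Cmpk2 in every library of the 7 groups, with the group mean (line) and SD (bar); grey lines part the 3 sorts. In stroma, Rsad2 spans 6.04 to 16.7 CPM in controls and 16.8 to 161 in transplanted mice, while Cmpk2 overlaps.

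Some erythroid markers moved with these genes. In transplanted stroma 3 of 6 erythroid markers rose, among them the globin genes Hba-a1 and Hbb-bs (by 2.7 and 3.33, adjusted p of 0.00166 and 7.93e-04, edgeR), with a median of 1.06 over the list. The others did not pass and lay below 0, Klf1 at -0.36, Car1 at -0.88 and Epor at -0.04. The summed level of the 6 was 1043 to 3030 CPM in controls and 2393 to 14730 in transplanted mice (median 5826), and no marker was at 0. The globin genes made up 15.8% to 45.9% of the sum in controls and 28.4% (N032) to 91.5% in transplanted mice. Across the 7 transplanted libraries, Isg15 followed that sum with Pearson's r = 0.985 (exact permutation p = 1.98e-04, adjusted over 4 relations 7.94e-04) and Spearman's rho = 1.00 (exact p = 3.97e-04, adjusted 0.00159). Without the 2 libraries farthest from the median, r was 0.982 (n = 5). For Rsad2, r was 0.728 (exact permutation p = 0.0607, adjusted 0.121) and rho 0.786 (exact p = 0.048, adjusted 0.096), and 0.578 without the 2 farthest. In the 8 control libraries r was 0.107 for Isg15 (exact permutation p = 0.822, adjusted 0.822, rho 0.095, exact p = 0.84) and 0.586 for Rsad2 (exact p = 0.132, adjusted 0.176, rho 0.214, exact p = 0.619). Without the 2 farthest controls they were -0.07 and 0.45. These 4 relations were chosen after the values had been seen, all tests were two-sided, and the libraries of each kind share a CPM scale. Of 7 macrophage markers, the 3 complement genes C1qa, C1qb and C1qc also rose in transplanted stroma (by 3.07, 3.36 and 2.56). Cd5l (1.77), Adgre1 (0.72), Vcam1 (-0.43) and Mrc1 (-1.33) did not pass. The summed macrophage level was 135 to 491 CPM in controls (median 209.2) and 68.0 to 320 in transplanted mice (median 210.5). The part of erythroid or macrophage RNA in the rise of Isg15 and Rsad2 was not tested.

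**Figure D5:**
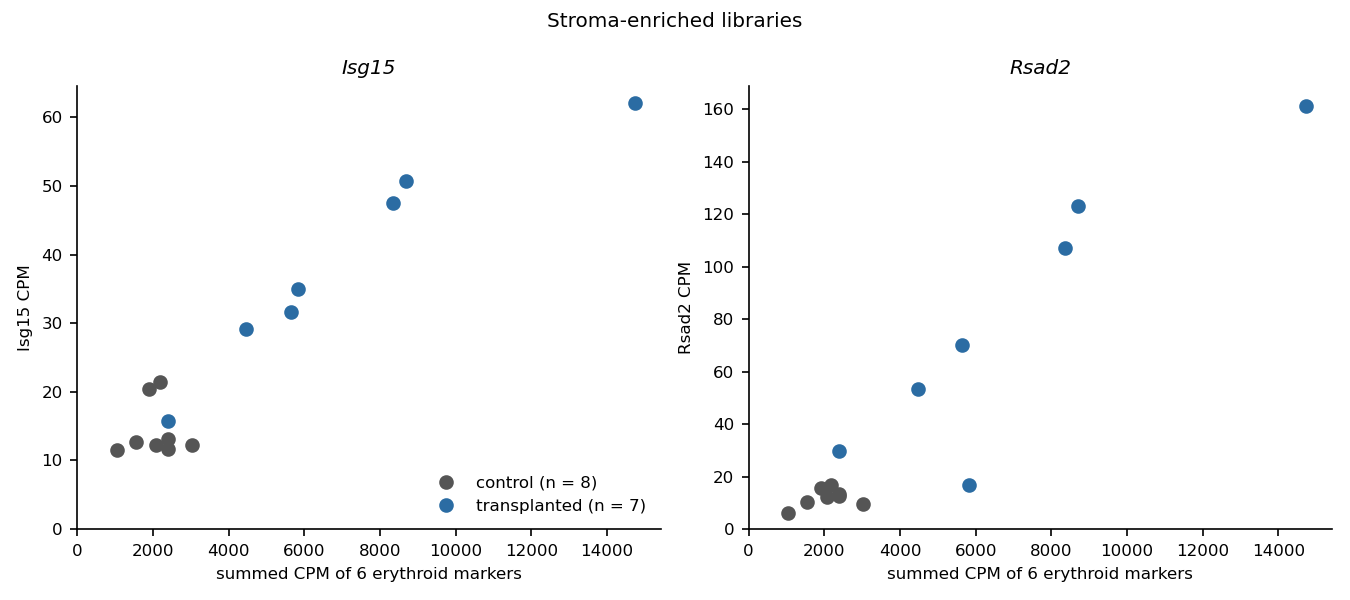
Isg15 (left) and Rsad2 (right) CPM in each stroma library against the summed CPM of 6 erythroid markers, with control (grey, n = 8) and transplanted (blue, n = 7) mice. In transplanted mice Isg15 climbs from 15.8 to 62.1 CPM in the order of the erythroid sum, while 1 Rsad2 point (N032, 16.8 CPM) lies below the others.

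The difference between sorts was tested as the stroma effect minus the host effect in 1 fit. Of the 38 members, 2 passed, Rsad2 (3.03 ± 0.45, adjusted p = 1.47e-04) and Isg15 (1.42 ± 0.32, adjusted p = 0.0094, edgeR), both with the larger effect in stroma, and none passed the other way, beside 1.08% and 1.61% of all genes. Oas1g did not pass here. The sorts were made with different library kits, which cannot be told apart from the cell type in this contrast.

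In CD11b+ myeloid cells of 3 transplanted and 3 control mice no member passed among 37 tested, and no gene passed among 15257 in edgeR (0% called), where 2506 genes and 5 members had an unadjusted p below 0.05. DESeq2 called 291 genes, none of them a member. The 5 members were Oasl1 (-0.80), Ddx58 (-0.37) and Irf9 (-0.28), and Gbp3 (0.64) and Cxcl9 (2.01). Type I members had a median of -0.28, with 22 of 27 below 0, and gamma-type members a median of 0.53, with 9 of 10 above 0, beside 0.02 over all genes. Groups did not overlap in 7 members: Ifit1, Oasl1, Irf9 and Ddx58 on the lower side and Gbp3, Igtp and Cxcl9 on the higher. With 3 mice a group, 24.1% of all genes had groups that did not overlap.

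Mouse N129 set much of the size of these values. Cxcl9 was at 0.298, 0.518 and 0.550 CPM in controls and at 0.612, 0.975 and 3.90 in transplanted mice, the last being N129. Gbp4 was at 1.27, 1.99 and 2.15 CPM in controls and 1.25, 1.91 and 8.77 in transplanted mice, and Rsad2 at 27.4, 30.3 and 35.2 against 29.4, 26.7 and 5.85, with N129 again last in both. Without N129 the type I median was -0.01 (12 of 27 above 0) and the gamma-type median 0.11, and the values were 0.79 for Cxcl9 and -0.19 for Gbp4. In that library the macrophage marker sum (353 CPM) and the T and NK sum (158 CPM) were the highest of the 6, and the neutrophil sum (74640 CPM, against 121700 to 145900 in the other 5) was the lowest. Ifng, made by T and NK cells, was at 2.77 CPM in N129 and at 0 to 0.259 in the other 5. What these markers contribute was not tested. No member passed in the CD11b effect minus the host effect, where 0.109% of genes did. In edgeR 2 members had an unadjusted p below 0.05 there, beside 1974 of 15639 genes.

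Final blood chimerism of the recipients ran from 0.63 to 5.99 in the labels, which give no unit. No member and no gene passed for a slope on log2 chimerism in host cells (0% of 14625 genes), donor cells (0% of 13990) or stroma (0% of 31105) in edgeR, with 7, 2 and 2 members, and 591, 300 and 1227 genes, at an unadjusted p below 0.05. In host cells the 7 had negative slopes (Ddx58 -0.21, Oas2 -0.27, Ifit3 -0.31, Oas3 -0.33, Oasl2 -0.25, Cmpk2 -0.15 and Rsad2 -0.14 per doubling), and 32 of 38 members (84.2%) were below 0, beside 52.2% of all genes. The host library of N269, the mouse with the lowest chimerism, was the highest of 7 in 16 of 28 type I members, and that of N014, with the highest chimerism, was the lowest in 12. The host library of N269 also had the highest neutrophil marker sum of the host group (70130 CPM, group median 34710). Its B-lineage sum was the lowest (101.7 CPM, group median 240.2). The part of these cells in the members' values was not tested. Without N269, 3 members had an unadjusted p below 0.05 and 34 lay below 0, and without N014 these were 3 and 30. Leaving out any 1 mouse gave 2 (without N204) to 13 (without N279) members at that p. No other tool was run on the slopes.

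The upstream genes of the pathway were read from a separate list of 43. Ligand genes other than Ifng were low in every group, with group means of at most 0.140 CPM (Ifnk in control stroma). The mean of Ifnb1 was at most 0.0622 CPM, and those of the 4 interferon alpha genes listed were at most 0.0438. Ifng stood at 1.78 ± 0.51 CPM in controls (SD, n = 8), 1.64 ± 0.49 in host cells and 0.0980 ± 0.10 in donor cells (SD, n = 7 each). It fell by 4.13 on the log2 scale in donor cells (adjusted p = 4.85e-07, edgeR), beside the fall of 6 of 7 T and NK markers given above. Host cells had 3 genes higher and 5 lower of 32 tested (9.38% and 15.6%, beside 8.61% and 7.82% of all genes). Those with the smallest p were Sting1, the adaptor of DNA sensing (0.65), Ikbke, a kinase of the same route (0.31), Jak1 (-0.20) and Stat2 (-0.28). Donor cells had 4 higher and 16 lower (12.5% and 50%, beside 22.7% and 23%), led by Ifng, the feedback inhibitor Socs1 (-1.42), Irf8 (-0.94) and the receptor gene Ifnar1 (-0.63). Jak2 itself fell by 0.29 (adjusted p = 0.00294), and was named after its value was seen. In the direct comparison of donor with host cells, 1 was higher and 9 lower (3.12% and 28.1%, beside 4.17% and 9.94%), Ifnar1 among them (-0.40). With the mouse as a replicate block these counts were 1 and 18. In stroma and in CD11b cells 0 of 32 passed in edgeR (1 and 11 at an unadjusted p below 0.05), and DESeq2 also called 0 in each. Over all genes, 2086 of 26191 in stroma and 2506 of 15257 in CD11b cells had such an unadjusted p in edgeR.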

How the data were processed

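Marrow sorts from mice were profiled by RNA-seq (43 libraries). Per the submitters' processing notes, reads were handled with STAR 2.7.3a, Subread 1.6.2 (featureCounts) and, listed for CD11b libraries, RSEM 1.3.3, on GRCm39; the step of each tool is not given in the sources used here. The authors deposited whole-number gene counts, not normalized, and TPM (transcripts per 1000000). Counts were tested with edgeR 4.0.16 (R 4.3.3) by its quasi-likelihood test, with its default filter on low counts, TMM scaling, sex as a covariate (CD11b mice were all male) and Benjamini-Hochberg adjustment at 0.05; only the groups compared entered each fit, and each difference between sorts used 1 fit over 4 groups. CPM are scaled within each sort. The lowest count in a library was 0 for Ifi44, 5 for Cxcl9, 11 for Oas1g and 13 for Mx2, and at such counts counting error adds to the spread between mice. The scripts were tested on simulated data. Alternatives used DESeq2 1.42.0, limma 3.58.1 (voom, and log2(TPM + pseudocount) with 1 or 0.1), other scalings and filters, sexes apart, and each library left out. Pairing comes from the labels: donor and host libraries of one mouse deviated together (r = 0.285 to 0.772 over 7 mice), as did mice killed on the same day (host and control 0.363 to 0.491, donor and control 0.299 to 0.460, stroma 0.226 to 0.718, 5 pairs each), while the CD11b day pairing gave 0.008. All 38 members are named, and of the pathway and other lists up to 4 genes with the smallest p. Members, lists and the rule were chosen with earlier results of these data known. Promoters are RefSeq GRCm38.p6; 8 members had no entry (Oas2, Mx1, Mx2, Usp18, Dhx58, Zbp1, Rtp4 and Gbp4).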

Additional observations from a re-analysis of the deposited data

Results flagged for a closer look

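In a group of 4 to 10 libraries, a library was singled out when its gap to the next one was large for the group's range (Dixon's test at 95%). Chance gives about 1 in 20 groups, and 33 of 190 member-and-group sets were singled out. The control mouse N288 was set apart as the highest of 8 CD45.1 control libraries in 16 members. In CPM these were Rsad2 50.4, Ifit1 5.86, Ifit3 9.35, Oas1a 34.5, Oas1g 5.86, Oas2 60.3, Oasl1 18.6, Oasl2 57.5, Irf7 104, Irf9 83.1, Ddx58 47.8, Zbp1 20.7, Xaf1 8.94, Irgm1 21.0, Igtp 14.5 and Irf1 168.02. Mouse N269 was set apart as the highest host library in Oas3 (114 CPM), Rtp4 (12.2), Ifitm3 (440) and Trim30a (102), the highest donor library in Ifit1 (4.86) and the highest transplanted stroma library in Usp18 (36.1). Mouse N005 was the highest host library in Mx2 (2.51 CPM).

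Mouse N032 was set apart mainly in gamma-type members. It was the highest host library in Gbp2 (43.9 CPM), Irgm1 (23.2), Cxcl9 (3.13) and Irf1 (175), and the highest donor library in Igtp (19.1) and Irf1 (162). In transplanted stroma it was the highest in Gbp3 (66.6 CPM), Gbp5 (20.9) and Cxcl10 (31.7) and the lowest in Ddx58 (14.6).

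The transplant difference itself differed between stroma and host cells for 2 members by the test of that difference in 1 fit: Rsad2, by 3.03 on the log2 scale, and Isg15, by 1.42.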

How the results depend on the processing

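No member that passed reversed its direction under any alternative run of its comparison. Some class medians changed sign. The type I median did so in host cells in 4 of 29 alternatives (0.13 with the day as a replicate block) and in stroma in males. The gamma-type median went from 0.23 to -0.24 in host cells and from 0.30 to -0.06 in donor cells in females alone. It also changed sign in stroma in 4 of 28 (-0.02 with that block) and for donor against host in 2 of 27. Of the single-gene results recomputed under each alternative, 620 kept their side of the threshold and 124 lost their call. Genes passing in host cells (2312) numbered 1263 and 1229 on log2(TPM + 1) and log2(TPM + 0.1), 479 in males and 121 in females alone, where 0 members passed against 4. Donor against control (6360 genes, 14 members) gave 3027 genes in males and 7 members in females. Donor against host (1928 genes, 5 members) gave 1146 and 1142 genes and 2 and 2 members on TPM, 8 members with no filter, 1136 genes in males, and 450 genes and 1 member in females; with the mouse as a replicate block it gave 4605 genes and 15 members. Stroma (391 genes, 3 members) gave 750 genes with DESeq2, 125 genes and 0 members in males, 0 and 0 in females, and 250 genes with the day as a replicate block. CD11b cells (0 genes) gave 291 with DESeq2, 59 with no filter, and 2 and 3 on TPM. For the CD11b effect minus the host effect (17 genes) a minimum of 1 CPM gave 0. Leaving out 1 library at a time gave 1527 to 2687 genes and 0 to 6 members in host cells, 5730 to 6732 genes and 12 to 18 members in donor cells against controls, 1507 to 2554 and 3 to 7 for donor against host, 272 to 593 (the highest without N032) and 2 to 3 in stroma, and 0 to 28 genes (28 without N187, 3 without N129) and 0 members in CD11b cells. Among members, the replicate block changed no other call than those given in the report and the following. In host cells Ifitm3 and Zbp1 passed with it as higher, at 0.39 and 0.52. In donor cells Eif2ak2, Ifih1 and Zbp1 passed as higher, and Igtp, Irf1, Irgm1 and Trim30a as lower. In all 18 members passed there, 8 higher and 10 lower. Library-size scaling moved the median of all genes in CD11b cells from 0.02 to 0.13 on the log2 scale; changes there are relative to it. Groups of 3 limit the CD11b test, and 7 mice the slopes.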

Other observations

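A further list of 52 interferon-response genes outside the 38 gave the following. In donor cells 4 of 51 tested were higher and 18 lower than in controls (7.84% and 35.3%, beside 22.7% and 23% of all genes, edgeR), led by the guanylate-binding protein genes Gbp9 (log2 fold change -2.28, adjusted p = 5.53e-09) and Gbp8 (-2.88, adjusted p = 9.23e-09), the DNA-binding gene Ifi209 (-1.05) and Ciita (-1.62), the master regulator of MHC class II. Against host cells of the same mice 0 of 52 were higher and 16 lower (0% and 30.8%, beside 4.17% and 9.94%; 1 and 24 genes with the mouse as a replicate block), led by Gbp8 (-2.82), Gbp9 (-1.61), Ifit1bl1 (-2.32) and Ly6a (-1.50), the gene of the stem cell antigen Sca-1. In host cells 6 of 52 were higher than in controls and 5 lower (11.5% and 9.62%, beside 8.61% and 7.82%). The smallest p belonged to Psmb10, an immunoproteasome subunit (0.37), Ifi209 (-0.45), Gbp9 (-0.68) and Ifit1bl1 (1.22).

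In stroma 1 of 52 was higher, Isg20, an exonuclease of RNA (35.3 ± 8.17 CPM in controls, SD, n = 8, and 61.5 ± 26.4 in transplanted mice, SD, n = 7; log2 fold change 0.74, adjusted p = 0.045, edgeR). Lower was 1 gene, the ADP-ribosyltransferase Parp12, from 18.1 ± 6.30 to 8.10 ± 2.49 CPM (-1.17, adjusted p = 0.0164, edgeR). Each is 1 of 52 genes, beside 0.466% of all genes higher and 1.03% lower in stroma. In host cells Parp12 was higher by 0.47, and the difference between the sorts passed (-1.62, adjusted p = 5.26e-04). In CD11b cells 0 of 52 passed in edgeR, with 12 at an unadjusted p below 0.05, beside 2506 of 15257 genes. DESeq2 called 3 of the list, all higher (Gbp8, Lgals3bp and Ly6e), and 291 genes in all.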
